A study of Mus musculus with 6 samples.

Results

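Mineral forms in bone where inorganic phosphate is plentiful and inorganic pyrophosphate, which blocks crystal growth, is scarce. ENPP1 makes pyrophosphate from extracellular ATP, the membrane protein encoded by Ank passes ATP and pyrophosphate out of the cell, and tissue-nonspecific alkaline phosphatase, encoded by Alpl, splits pyrophosphate into phosphate at the cell surface and on matrix vesicles. PHOSPHO1 frees phosphate inside matrix vesicles from the phosphocholine that the sphingomyelinase SMPD3 helps to supply, SLC20A1 and SLC20A2 carry phosphate across the membrane, matrix Gla protein (Mgp) inhibits calcification, and PHEX is a peptidase of bone cells whose loss causes phosphate wasting.

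The 9 genes examined here, Alpl, Phospho1, Enpp1, Ank, Slc20a1, Slc20a2, Mgp, Smpd3 and Phex, were chosen by name for these roles, and all 9 were found among the 55401 genes of the count table, of which 29043 had at least 1 count. Ank is the symbol that GENCODE M21 gives to the gene also known as Ankh. RNA was sequenced from C3H10T1/2 cells, a mouse mesenchymal line that can form bone, fat and cartilage cells, which expressed a control hairpin RNA (shControl, genotype given as WT) or one directed at Nfib (shNFIB) or at Mll1, the gene Kmt2a (shMLL1). Each line was sampled untreated at day 0 and after 7 days in osteogenic media, which held dexamethasone (0.1 µM), ascorbic acid 2-phosphate (100 µg/ml) and β-glycerophosphate (20 mM), an organic phosphate that alkaline phosphatase can cleave. This gave 6 conditions with 1 library each, so no condition has a spread between cultures. All 3 lines carry a hairpin vector, and whether a line is a clone or a pool was not given in the sources used here.

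The libraries held 21608680 to 34774066 counts, the fewest in shMLL1 at day 7. Levels are counts-per-million values (CPM), scaled between libraries with TMM factors (trimmed mean of M-values). Nfib had 116 CPM at day 0 and 83.5 CPM at day 7 in shControl, against 35.3 and 8.15 CPM in shNFIB and 65.5 and 72.7 CPM in shMLL1, so its lowest levels were in the 2 shNFIB libraries. Kmt2a had 74.7 and 66.3 CPM in shControl, against 86.5 and 94.1 CPM in shNFIB and 30.9 and 34.8 CPM in shMLL1, so its lowest levels were in the 2 shMLL1 libraries. Of 5 mesenchymal markers (Pdgfra, Pdgfrb, Thy1, Vim, Prrx1), all were above 3 counts in every library, with a summed level of 2827 to 8375 CPM. Of 6 osteoblast markers, 3 to 5 were above 3 counts, with Ibsp at 0 in every library and Sp7 at no more than 7 counts. Their summed level, mostly Col1a1, went from 1089 CPM at day 0 to 2696 CPM at day 7 in shControl. It went from 1166 to 1311 CPM in shNFIB and from 1143 to 1434 CPM in shMLL1.

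Measured per exon length as transcripts-per-million values (TPM), Mgp was the most abundant of the genes, with a median of 964 TPM over the 6 libraries and a range of 183 to 3753 TPM. Ank followed with a median of 167 TPM (80.1 to 194), and in the shMLL1 library of day 0 it stood above Mgp. Slc20a2 (median 23.1 TPM, 15.0 to 28.5) and Slc20a1 (22.4 TPM, 13.4 to 36.5) could not be ordered, since their ranges overlapped over most of their length. Phospho1 (5.38 TPM), Smpd3 (3.07 TPM), Enpp1 (1.97 TPM) and Phex (1.85 TPM) also overlapped in range with each neighbour. Alpl had the lowest median, 0.165 TPM, and a range of 0 to 5.13 TPM.

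**Figure D1:**
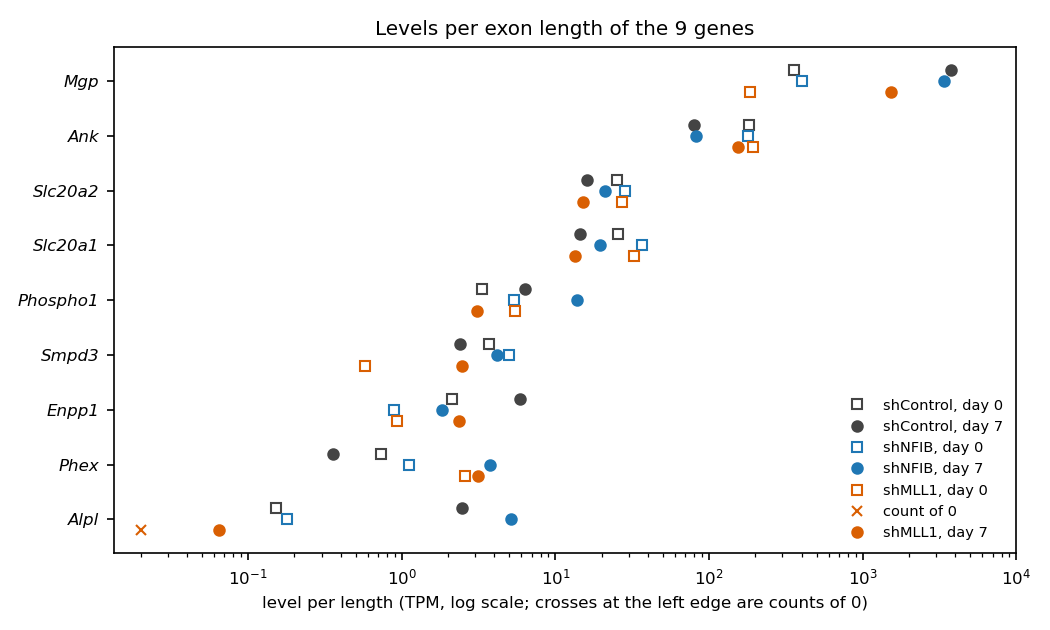
Levels of the 9 genes per exon length (TPM, log scale), 1 point for each library, open squares for day 0 and filled circles for day 7, with lines by colour and a cross at the left edge for a count of 0. Mgp and Ank lie above the other genes in every library, and Alpl spans from 0 to 5.13 TPM.

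Alkaline phosphatase gene Alpl (ENSMUSG00000028766, GRCm38 chr4:137741733-137796384, minus strand) shared no bases with another annotated gene. It had 7 counts at day 0 and 111 at day 7 in shControl, 8 and 215 in shNFIB, and 0 and 2 in shMLL1. In CPM the shControl levels were 0.219 at day 0 and 3.64 at day 7. Those of shNFIB were 0.253 and 7.27, and those of shMLL1 were 0 and 0.0820. For the count of 0 the 95% counting interval reaches up to 0.122 CPM. The day 7 libraries of shControl and shNFIB thus stood apart, and each of the other 4 libraries held 8 counts or fewer. The log2 ratio of day 7 to day 0 was 4.05 in shControl (95% counting interval 2.96 to 5.40) and 4.84 in shNFIB (3.84 to 6.07), intervals that overlap. The shMLL1 line had no more than 3 counts on either day and gives no ratio. At day 7 the shMLL1 library stood below shControl by a log2 ratio of -5.47 (-8.54 to -3.59), from 2 counts against 111, and the shNFIB library stood above it at 0.998 (0.66 to 1.34). At day 0 shMLL1 held 0 counts against 7 in shControl. Taking 3 counts for the 0 put it 2.2-fold lower, which is a convention and not a limit. The counting interval of the 0 reaches beyond the worth of 3 counts (0.0994 CPM). The shNFIB and shControl libraries were not distinguishable at day 0 (0.21, interval -1.45 to 1.91). The other alkaline phosphatase genes, Alpi, Alppl2 and Akp3, had 0 counts in every library.

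Phospho1 (ENSMUSG00000050860, GRCm38 chr11:95824499-95832140, plus strand) gave another pattern. Its levels were 2.41 and 4.69 CPM in shControl at day 0 and day 7, 3.83 and 9.81 CPM in shNFIB, and 4.47 and 1.97 CPM in shMLL1. The day 7 library was thus the higher one in shControl and shNFIB and the lower one in shMLL1. The log2 ratios of day 7 to day 0 were 0.96 (0.55 to 1.38) in shControl, 1.36 (1.05 to 1.67) in shNFIB and -1.19 (-1.69 to -0.70) in shMLL1. Against shControl, shMLL1 stood at 0.89 (0.48 to 1.32) at day 0 and -1.25 (-1.76 to -0.77) at day 7, whereas shNFIB stood at 0.67 (0.24 to 1.10) and 1.06 (0.77 to 1.36). The exons of Phospho1 share bases with Zfp652 on the same strand and Abi3 on the other, so its 48 to 290 counts are uncertain to that extent.

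The sequences before the starts of Alpl, Phospho1 and Enpp1 are shown because the enzymes they encode form pyrophosphate or release phosphate. These genes also differed between lines at day 7 and have a window in the RefSeq table (GRCm38.p6). Of the 9 genes, 6 had such a window, 8 windows in all, while Mgp, Slc20a2 and Smpd3 had none. Each run is the 250 bases before an annotated start, read 5′ to 3′ on the strand of the gene. Capitals mark a match on either strand to TTGGC (a half-site of the NFI family), TGTGGT (the core of RUNX sites) or AGAACA (a half-site of the glucocorticoid receptor, to which dexamethasone binds), 3 motifs that do not overlap in these windows.
Alpl, first start, chr4:137796385-137796634, minus strand: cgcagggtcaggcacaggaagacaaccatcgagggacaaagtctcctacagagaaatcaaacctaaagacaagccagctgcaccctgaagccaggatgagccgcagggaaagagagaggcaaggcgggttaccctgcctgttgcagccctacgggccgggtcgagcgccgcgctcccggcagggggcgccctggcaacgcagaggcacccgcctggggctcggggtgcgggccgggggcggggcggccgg
Alpl, second start, chr4:137766476-137766725, minus strand: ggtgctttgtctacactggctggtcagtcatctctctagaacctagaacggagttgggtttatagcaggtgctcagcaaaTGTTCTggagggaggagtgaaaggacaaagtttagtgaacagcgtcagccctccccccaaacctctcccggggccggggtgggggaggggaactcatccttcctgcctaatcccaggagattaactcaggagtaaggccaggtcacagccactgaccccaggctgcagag
Phospho1, chr11:95824250-95824499, plus strand: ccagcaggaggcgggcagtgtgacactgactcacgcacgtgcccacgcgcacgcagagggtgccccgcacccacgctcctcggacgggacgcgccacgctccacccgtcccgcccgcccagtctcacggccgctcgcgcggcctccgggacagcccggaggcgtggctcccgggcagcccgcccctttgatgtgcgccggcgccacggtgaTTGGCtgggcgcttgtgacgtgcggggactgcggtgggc
Enpp1, chr10:24712160-24712409, minus strand: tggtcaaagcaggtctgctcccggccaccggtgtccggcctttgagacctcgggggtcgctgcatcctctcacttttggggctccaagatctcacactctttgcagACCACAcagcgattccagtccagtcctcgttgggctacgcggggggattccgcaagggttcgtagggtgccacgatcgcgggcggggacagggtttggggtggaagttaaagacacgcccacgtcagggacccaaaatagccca
The first start of Alpl held none of these letters, and the second held 1 AGAACA on the opposite strand, 170 to 165 bases before the start. Phospho1 held 1 TTGGC, 39 to 35 bases before the start, and Enpp1 held 1 TGTGGT on the opposite strand, 144 to 139 bases before it. Among the unprinted windows, that of Phex held 1 TTGGC, the first of Slc20a1 held 1 TTGGC and 1 TGTGGT, the second of Slc20a1 held 1 AGAACA, and that of Ank held none. Of 32817 such windows over all genes, 41.5% held TTGGC, 14.0% TGTGGT and 16.1% AGAACA, so single matches of this kind are common. The counts do not tell from which start of Alpl its transcripts came.

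Enpp1 (ENSMUSG00000037370, GRCm38 chr10:24637914-24712159, minus strand), the pyrophosphate-forming enzyme, was lower in both knockdown lines than in shControl on both days. Its levels were 7.76 and 21.9 CPM in shControl at day 0 and day 7, 3.23 and 6.60 CPM in shNFIB, and 3.88 and 7.54 CPM in shMLL1. Both knockdown lines at day 7 stood no higher than shControl at day 0. In shNFIB the log2 ratio to shControl was -1.27 (-1.61 to -0.93) at day 0 and -1.73 (-1.97 to -1.50) at day 7. In shMLL1 the ratios were -1.002 (-1.33 to -0.68) and -1.54 (-1.78 to -1.30). These comparisons share the shControl libraries and are therefore not independent of each other. Within each line the day 7 level was the higher one, by a log2 ratio of 1.497 (1.28 to 1.71) in shControl, 1.03 (0.68 to 1.39) in shNFIB and 0.96 (0.62 to 1.31) in shMLL1.

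Ank (ENSMUSG00000022265, GRCm38 chr15:27466677-27594909, plus strand), the export gene, was lower at day 7 in each line. The shControl line went from 235 to 105 CPM, the shNFIB line from 228 to 104 CPM and the shMLL1 line from 285 to 176 CPM. The levels of shNFIB and shControl lay close together on both days, with log2 ratios of -0.05 at day 0 and -0.02 at day 7. The shMLL1 levels were the highest on both days, with log2 ratios to shControl of 0.28 (0.23 to 0.32) and 0.74 (0.67 to 0.80). Enpp1 and Ank, which both raise extracellular pyrophosphate, thus moved in opposite directions between the days.

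The phosphate transporters also stood lower at day 7 in each line. Slc20a1 (ENSMUSG00000027397, GRCm38 chr2:129198764-129211616) went from 50.6 to 29.2 CPM in shControl, from 72.0 to 38.4 CPM in shNFIB and from 74.1 to 23.5 CPM in shMLL1. Slc20a2 (ENSMUSG00000037656, GRCm38 chr8:22476788-22569612) went from 55.8 to 36.3 CPM, from 62.6 to 46.2 CPM and from 68.6 to 29.3 CPM in the same order. For both genes shControl had the lowest level at day 0 and shMLL1 the lowest at day 7. The log2 ratio of day 7 to day 0 of Slc20a1 was -0.80 in shControl, -0.91 in shNFIB and -1.66 (-1.79 to -1.52) in shMLL1. That of Slc20a2 was -0.62, -0.44 and -1.23 (-1.35 to -1.10). Both genes overlap exons of genes on the other strand (Gm4430 and 9830144P21Rik for Slc20a1, Smim19 for Slc20a2), and whether the counting used strand was not given in the sources used here.

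Mgp (ENSMUSG00000030218, GRCm38 chr6:136872435-136875823), the calcification inhibitor, had the most counts of the 9 genes at day 7. It went from 151 to 1623 CPM in shControl, from 170 to 1415 CPM in shNFIB and from 88.4 to 569 CPM in shMLL1. The shMLL1 library was the lowest on each day, and the day 0 and day 7 levels did not overlap across lines. The log2 ratios of day 7 to day 0 were 3.43 (3.38 to 3.47) in shControl, 3.06 (3.02 to 3.10) in shNFIB and 2.69 (2.63 to 2.75) in shMLL1. Against shControl, shMLL1 stood at -0.77 (-0.84 to -0.71) at day 0 and at -1.51 (-1.54 to -1.49) at day 7, and shNFIB at 0.17 and -0.20.

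Smpd3 (ENSMUSG00000031906, GRCm38 chr8:106252548-106337988), neutral sphingomyelinase of matrix vesicles, was set apart by 1 library. The shControl libraries had 6.89 and 4.53 CPM, the shNFIB libraries 9.22 and 7.68 CPM and the shMLL1 libraries 1.23 and 4.06 CPM at day 0 and day 7. The shMLL1 library of day 0, with 37 counts, lay below shControl by a log2 ratio of -2.49 (-3.03 to -1.98), whereas at day 7 the same ratio was -0.16 (-0.55 to 0.22). Day 7 was therefore the higher day in shMLL1, at 1.73 (1.17 to 2.31), and the lower day in shControl (-0.61, interval -0.92 to -0.29) and shNFIB (-0.26, interval -0.52 to -0.01). Smpd3 overlaps exons of Prmt7 on the other strand.

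Phex (ENSMUSG00000057457, GRCm38 chrX:157162075-157415312), the peptidase gene, was higher in both knockdown lines than in shControl. Its levels were 1.66 and 0.820 CPM in shControl, 2.47 and 8.25 CPM in shNFIB, and 6.63 and 6.19 CPM in shMLL1. The 2 shControl libraries had the lowest levels, with 53 and 25 counts. At day 7 shNFIB exceeded shControl by a log2 ratio of 3.33 (2.73 to 3.99), and shMLL1 exceeded it by 2.92 (2.30 to 3.59). At day 0 the excess was 0.57 (0.05 to 1.11) for shNFIB and 2.00 (1.55 to 2.46) for shMLL1. The shNFIB line thus reached its level between the days (log2 ratio of day 7 to day 0 of 1.74, interval 1.37 to 2.13), whereas in shMLL1 the days were not distinguishable (-0.10, interval -0.41 to 0.21).

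**Figure D2:**
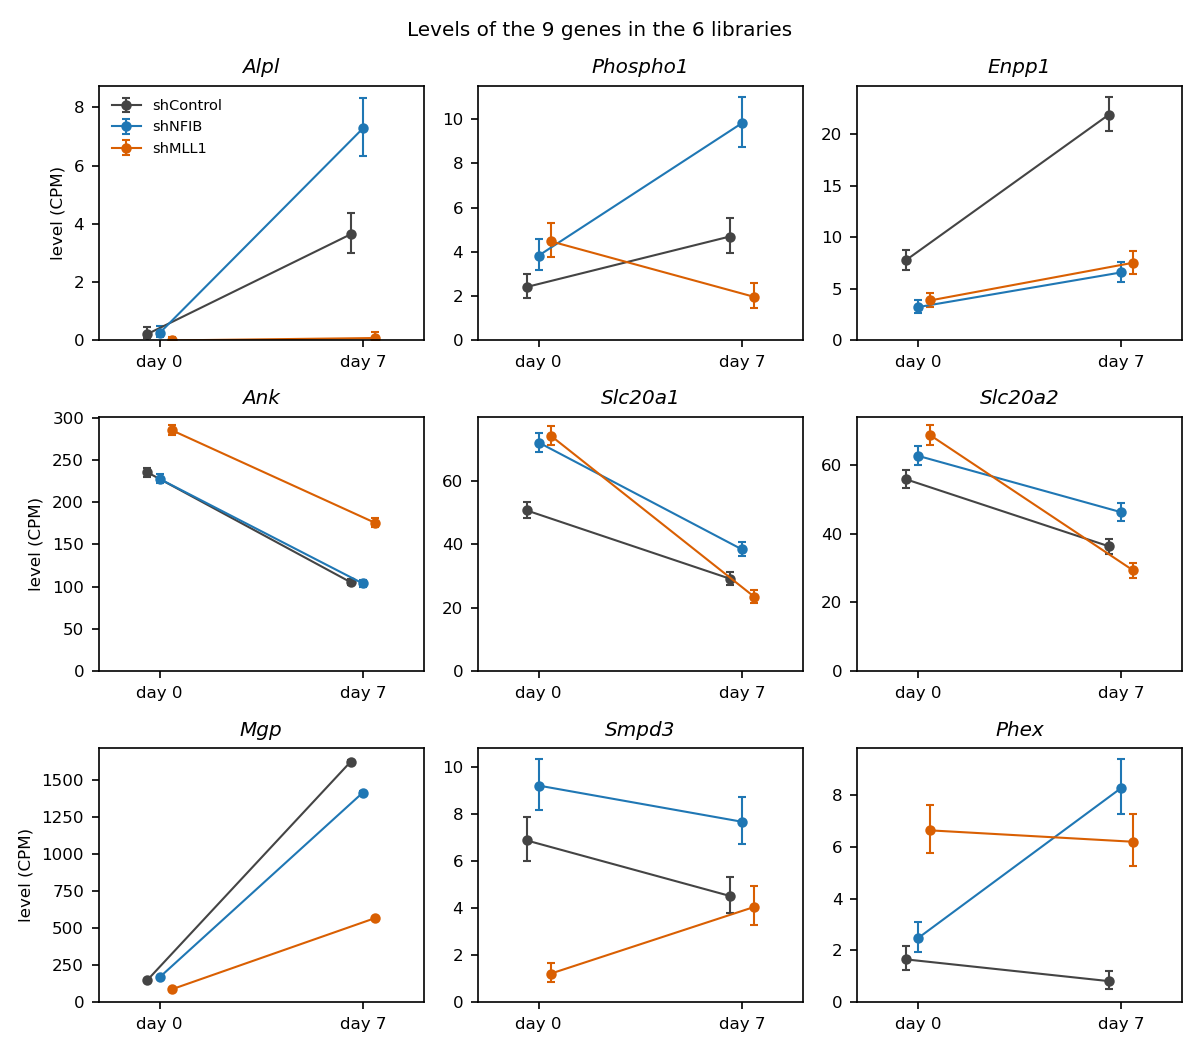
Levels (CPM, linear axis from 0) of each gene in the 6 libraries, with day 0 and day 7 of a line joined and bars for the exact 95% Poisson interval, which covers counting error only. Alpl in shMLL1 stays at or near 0, Enpp1 in both knockdown lines stays below shControl, and Phex in both knockdown lines lies above it.

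Across the 3 lines, day 7 was compared with day 0 in an edgeR quasi-likelihood fit in which lines formed blocks, and p-values were adjusted by Benjamini-Hochberg over 16742 genes. Alpl, Mgp and Enpp1 rose and Ank, Slc20a1 and Slc20a2 fell, so that 3 of 9 genes were called higher, where 16.9% of all genes were, and 3 of 9 lower, where 16.7% were. Alpl entered the test through the day 7 libraries in which it was high, so its call is no independent evidence, and without it 2 of 8 genes were higher. By RNA, the genes of the pyrophosphate-splitting phosphatase (in shControl and shNFIB), the pyrophosphate-forming enzyme and the calcification inhibitor were therefore on the side that rose. The genes of pyrophosphate export and phosphate uptake were on the side that fell, and transport itself was not measured. The log2 fold change was 3.04 ± 0.28 (SE) for Mgp (edgeR adjusted p = 0.000683), higher in 3 of 3 lines. It was 4.45 ± 0.53 for Alpl (edgeR adjusted p = 0.00156), a value carried by shControl and shNFIB, and 1.15 ± 0.26 for Enpp1 (edgeR adjusted p = 0.0156), higher in 3 of 3 lines. Slc20a1 fell by 1.13 ± 0.24 on the log2 scale (edgeR adjusted p = 0.0127), Ank by 1.01 ± 0.21 (edgeR adjusted p = 0.0111) and Slc20a2 by 0.77 ± 0.23 (edgeR adjusted p = 0.0369), each in 3 of 3 lines. Phospho1 (0.42 ± 0.54, edgeR adjusted p = 0.568), Phex (0.23 ± 0.54, edgeR adjusted p = 0.770) and Smpd3 (0.21 ± 0.46, edgeR adjusted p = 0.749) did not pass, and in these 3 the lines did not share a direction. The median log2 fold change of the 9 genes was 0.23 against -0.00471 over all genes. Without the shControl line, 1 of the 9 was called higher and 1 lower. Over all genes, 1213 were then called higher and 1197 lower, against 2834 and 2790 with all 3 lines. Enpp1 (log2 fold change 0.99, edgeR adjusted p = 0.173), Ank (-0.92, 0.113) and Slc20a2 (-0.84, 0.129) no longer passed. Alpl did not pass the expression filter. Without the shNFIB line Alpl again did not pass that filter, so its call needs both lines. In that fit 2 of the 9 were called higher, and 2599 over all genes. Without the shMLL1 line Slc20a2 did not pass (edgeR adjusted p = 0.0862) and Phospho1 did, with a log2 fold change of 1.20 (edgeR adjusted p = 0.0305).

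Among all genes called in this comparison 50.4% were higher. With library sizes alone in place of TMM that share was 60.8%, the median log2 fold change of all genes was 0.143, and Slc20a2 did not pass (edgeR adjusted p = 0.0562). The summed level of 4 proliferation markers (Mki67, Top2a, Ccnb1, Cdk1), all above 3 counts in every library, was 1135 to 1726 CPM at day 0 and 113 to 162 CPM at day 7. That of 5 smooth muscle markers, of which 3 to 5 were above 3 counts, was 1274 to 1523 CPM and 131 to 258 CPM. The summed level of 8 adipocyte markers went from 51.0 to 200.1 CPM in shControl, from 63.5 to 94.1 CPM in shNFIB and from 18.2 to 32.0 CPM in shMLL1, with 3 or 4 of the 8 above 3 counts at day 0 and 7 of 8 at day 7. Of 4 leukocyte and endothelial markers 1 or 2 were above 3 counts, with a sum of 1.52 to 8.48 CPM. That of 5 chondrocyte markers, of which 3 or 4 were above 3 counts, went from 415 to 157 CPM in shControl and from 269.7 to 95.6 CPM in shNFIB, but from 81.5 to 111.6 CPM in shMLL1. The part of these lists in the results was not tested. In bulk RNA, fewer cells of a type and less RNA per cell cannot be told apart.

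In pairs of single libraries there is no test, and a gene is listed where its ratio is past 2-fold, among 15845 genes with a mean of at least 10 counts. All 9 genes passed this filter, Alpl only through its day 7 libraries of shControl and shNFIB, so that it had to differ between the days. In shControl, Alpl, Enpp1 and Mgp were higher at day 7 past 2-fold, 3 of 9 (2 of 8 without Alpl) against 20.1% of all genes, and Ank and Phex (-1.02, interval -1.76 to -0.30) were lower, 2 of 9 against 14.7%. In shNFIB, 5 of 9 were higher (Alpl, Phospho1, Enpp1, Mgp and Phex) against 15.3%, and 1 of 9, Ank, was lower against 13.0%. Without Alpl, which had to differ, the higher genes in shNFIB were Phospho1, Enpp1, Mgp and Phex. In shMLL1, Mgp and Smpd3 were higher, 2 of 9 against 23.4%, and Phospho1, Slc20a1 and Slc20a2 lower, 3 of 9 against 18.8%. Mgp was past 2-fold in the same direction in all 3 lines. Enpp1 missed this in shMLL1 at 0.96, and with library sizes alone it was past 2-fold there too (1.17).

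Knockdown and control were compared in the same way on each day. At day 0, shNFIB had 0 of 9 higher against 6.83% of all genes and 1 of 9, Enpp1, lower against 5.84%. At day 0, shMLL1 had 1 of 9, Phex, higher against 9.02%, and Alpl, Enpp1 and Smpd3, 3 of 9, lower against 8.99%. The place of Alpl there rests on 0 counts against 7. At day 7, shNFIB had Phospho1 and Phex higher, 2 of 9 against 7.43%, and Enpp1 lower, 1 of 9 against 10.7%, with Alpl at a ratio just under 2-fold. At day 7, shMLL1 had Phex higher, 1 of 9 against 6.54%, and Alpl, Phospho1, Enpp1 and Mgp lower, 4 of 9 against 5.83%. Alpl had passed the filter only through the day 7 libraries of shControl and shNFIB. Its place here is therefore no independent evidence, and without it Phospho1, Enpp1 and Mgp remain. Enpp1 was the gene past 2-fold in all 4 pairs of knockdown and control. In shMLL1 at day 0 it was so by as little as 2.00-fold, and DESeq2's size factors put it inside 2-fold there (-0.93).

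**Figure D3:**
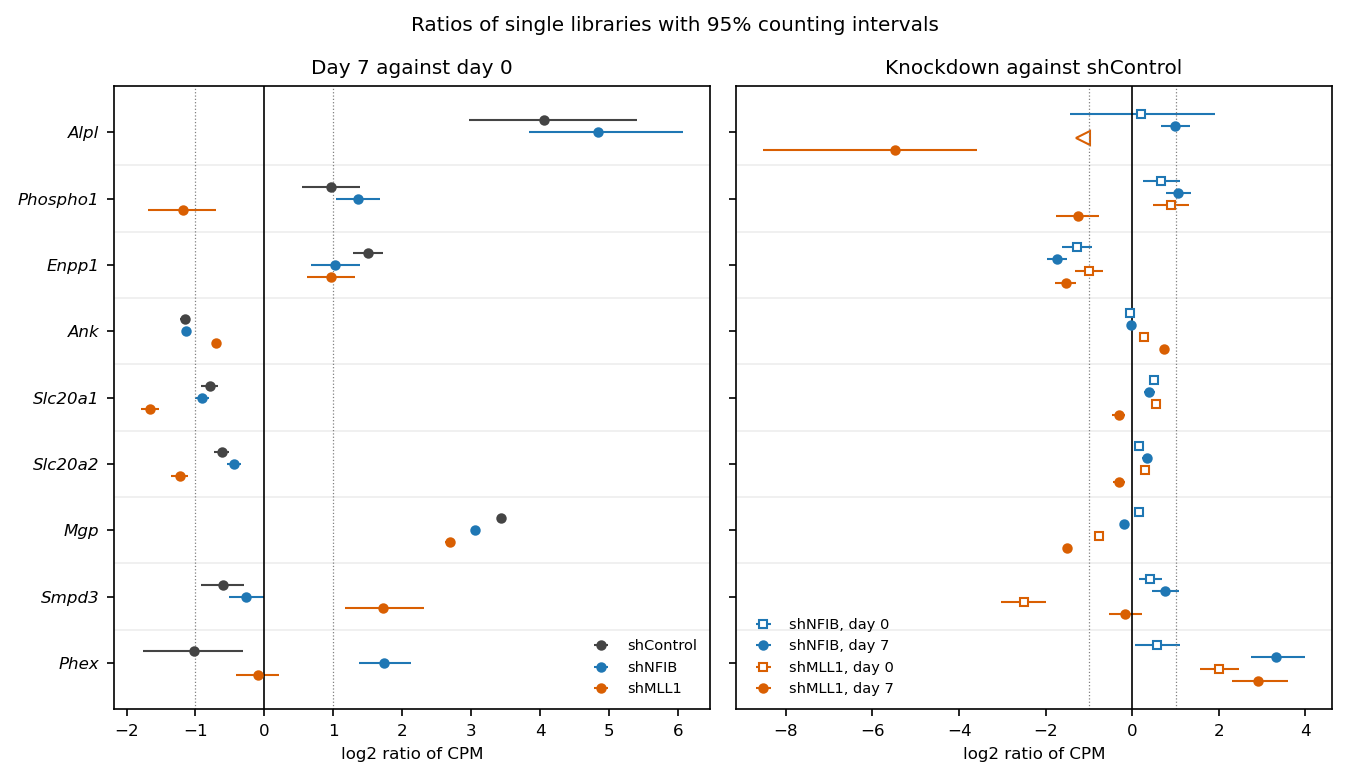
Log2 ratios of CPM between single libraries, with exact 95% counting intervals and dotted lines at 2-fold. The left side has day 7 against day 0 in each line. The right side has each knockdown against shControl at day 0 (open squares) and day 7 (filled circles). An open triangle marks a ratio with a count of 0 set to 3 counts. Mgp lies to the right in all 3 lines on the left, and Enpp1 lies to the left in all 4 pairs on the right.

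Over both days together, with the 2 libraries of a line, none of the 9 genes passed edgeR's quasi-likelihood test in either knockdown. For shNFIB, 0 of 9 were higher against 0.113% of all genes and 0 of 9 lower against 0.305%, where 2077 of 16742 genes and 2 of the 9 (Enpp1 and Phex) had an unadjusted p under 0.05. The nearest was Enpp1, with a log2 fold change of -1.55 ± 0.32 (edgeR adjusted p = 0.118), followed by Phex at 1.99 ± 0.68 (edgeR adjusted p = 0.304). DESeq2's Wald test called 1 member, Enpp1 (-1.54, adjusted p = 0.00218), lower. Among the 29043 genes given to it, that test called 299 higher and 315 lower in shNFIB. For shMLL1, 0 of 9 were higher against 0.0119% and 0 of 9 lower against 0.0179%, where 1540 genes and 4 of the 9 (Alpl, Enpp1, Mgp and Phex) had an unadjusted p under 0.05. The nearest were Alpl (edgeR adjusted p = 0.0783), whose fitted value depends on the prior count because its 2 libraries held 0 and 2 counts, Enpp1 at -1.24 ± 0.32 (edgeR adjusted p = 0.242), Phex at 2.38 ± 0.66 (edgeR adjusted p = 0.277) and Mgp at -1.10 ± 0.33 (edgeR adjusted p = 0.325). DESeq2's Wald test called these 4, with adjusted p of 0.000182 for Alpl, 0.0353 for Enpp1, 0.0184 for Mgp and 0.0184 for Phex. Among the 29043 genes given to it, it called 171 higher and 239 lower in shMLL1. The value of Alpl rests on 0 and 2 counts in shMLL1 and on the day 7 library of shControl, where Alpl was high.

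The other genes of the pathway were taken from 7 lists with 43 genes, of which 29 could be tested between the days. By edgeR's quasi-likelihood test 7 rose, 7 fell and 15 did not pass, against 16.9% of all genes that rose and 16.7% that fell. The median log2 fold change of the 29 was 0.00408. The genes that rose include Ahsg, which entered the test through the day 7 libraries in which it was high. Of 8 genes of sphingomyelin and phosphocholine metabolism, the supply route of PHOSPHO1, 4 rose and 1 fell, too few genes to set against those shares. The choline kinases Chka (1.26 ± 0.25) and Chkb (1.41 ± 0.22) and the sphingomyelinases Smpd2 (1.22 ± 0.20) and Smpd4 (0.74 ± 0.19) rose, while the sphingomyelin synthase gene Sgms2 fell by 2.26 ± 0.22 on the log2 scale. Of 6 tested genes of pyrophosphate and nucleotide turnover, 1 rose and 3 fell. The ATP-hydrolysing Entpd2 rose (2.19 ± 0.61, from 2 to 52 counts a library), and the adenosine deaminase gene Ada (-2.08 ± 0.35), the pyrophosphatase gene Ppa1 (-1.24 ± 0.34) and the ENPP1 relative Enpp3 (-1.10 ± 0.24) fell. Enpp3 and Enpp1 thus changed in opposite directions.

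Of 4 tested genes of phosphate transport and sensing, the phosphate exporter gene Xpr1 fell (-0.89 ± 0.19), as both importer genes did, and 3 did not pass. The sodium-phosphate cotransporter genes Slc34a1, Slc34a2 and Slc34a3 of kidney and gut had no more than 5 counts in a library, and the phosphate hormone gene Fgf23 had 0. Of 3 annexins of matrix vesicles, Anxa2 fell (-1.22 ± 0.26) and Anxa5 and Anxa6 did not pass. Of 6 genes of Gla protein carboxylation and other inhibitors, Gas6, a Gla protein as MGP is, rose (5.17 ± 0.48). Its log2 ratio of day 7 to day 0 was 4.83 in shControl and 5.91 in shMLL1. In shNFIB the ratio was 2.27 and rests on few counts, as low as 2. Ahsg, the gene for fetuin-A, was also called higher, from 0 or 1 count to 7 to 27 counts. It entered the test through the day 7 libraries in which it was high, so its call is no independent evidence. Vkorc1l1, a vitamin K reductase gene, fell (-0.79 ± 0.18), and Ggcx, the carboxylase that MGP needs, did not pass (-0.06 ± 0.20). Among the 5 acidic matrix phosphoproteins, Ibsp and Dspp had 0 counts in every library. Spp1, the gene for osteopontin, a PHEX substrate, went from 217 to 1381 CPM in shControl, from 217 to 226 CPM in shNFIB and from 224 to 304 CPM in shMLL1, and did not pass over the 3 lines (1.00 ± 0.51, edgeR adjusted p = 0.161).

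**Figure D4:**
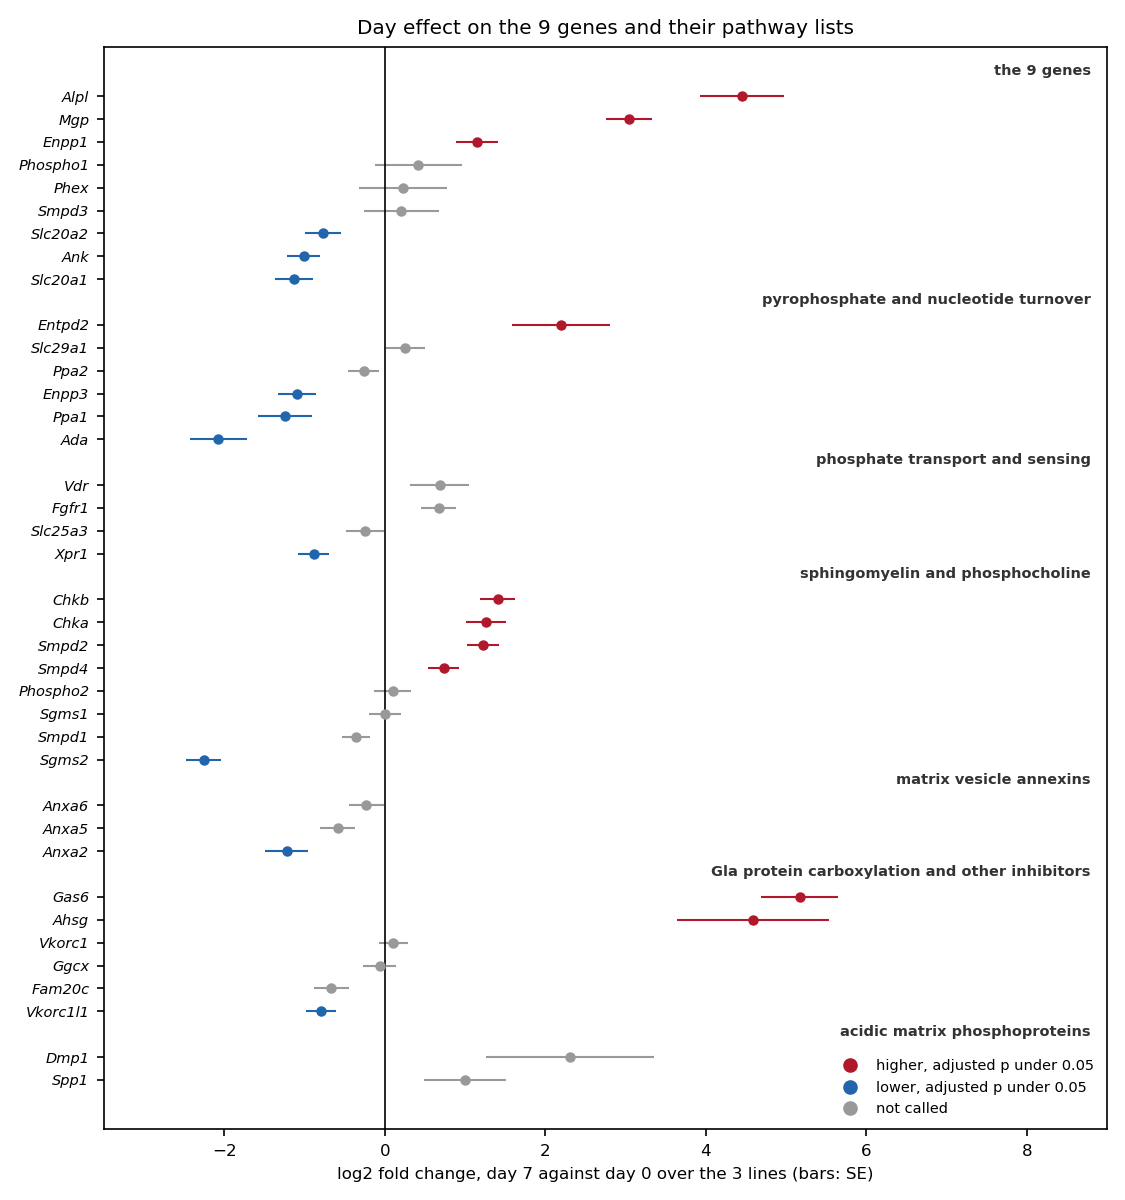
Log2 fold change of day 7 against day 0 over the 3 lines for the 9 genes and the tested genes of their pathway lists, from edgeR with the line as a block, with bars of 1 SE and colours for the adjusted p. Of the 9 genes 3 lie to the right and 3 to the left in colour, and of the 29 pathway genes 7 and 7.

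Between lines, 1 of these 29 pathway genes passed edgeR's test in shNFIB, lower, as 0.305% of all genes were. In shMLL1 0 passed, against 0.0119% of all genes higher and 0.0179% lower. An unadjusted p under 0.05 was reached by 9 of the 29 in shNFIB, where 2077 of all 16742 genes reached it. In shMLL1 it was reached by 5 of the 29, where 1540 of all genes reached it. There DESeq2 called 1, Chka, higher, as it did 171 of all genes. The gene in shNFIB was Gas6, which had 813 and 22101 counts in shControl, 2 and 9 counts in shNFIB and 359 and 17486 counts in shMLL1 (edgeR adjusted p = 0.00819). Its log2 ratio of shNFIB to shControl was -8.65 (-11.70 to -6.79) at day 0 and -11.22 (-12.35 to -10.29) at day 7. Gas6 and Mgp, both Gla protein genes, thus had unlike levels in the shNFIB line, where the ratios of Mgp to shControl were 0.17 and -0.20. In the same pairs Xpr1 stood above shControl in shNFIB, at 0.95 (0.86 to 1.03) and 1.39 (1.26 to 1.51). DESeq2 called Xpr1 higher there, as it did 299 of all genes.

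As a description of likeness over the 6 libraries, log2(CPM + 1) of each gene was correlated with that of 11544 genes with a mean of at least 100 counts. Alpl was left out, with a mean of 57.2 counts. The points share depth and scaling, and 6 points that fall mostly into day 0 and day 7 give high values for many genes. Slc20a2 had 403 genes and Slc20a1 352 genes with r above 0.95, and both follow the common fall between the days. Mgp had 140 such genes, led by Slc25a34, Ninl and Tmem82 (r = 0.998, 0.997 and 0.997), Smpd3 80, led by Cavin3 (0.995), and Ank 40, led by Mctp1 (0.995). Enpp1 had 18, led by Slc16a4 (0.990), Phex 6, led by Rlf (0.993), and Phospho1 5, led by Gm37800 (0.975), so these 3 had the profiles shared by the fewest genes.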

How the data were processed

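RNA from C3H10T1/2 cells in 6 conditions was sequenced as 1 library per condition. The authors used Trimmomatic 0.39 for paired-read trimming, HISAT2 2.2.1 for alignment to GRCm38 (mm10), SAMtools 1.12 to keep well-mapped reads, then removed PCR duplicates and counted reads per gene with HTSeq 0.11.1. The deposited values are these raw counts per Ensembl gene, 21608680 to 34774066 per library, where 3 counts are worth 0.0939 to 0.123 CPM. The annotation release and strand setting of the counting are not given in the sources used here. Groups came from the sample titles.

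Here 55141 of 55401 gene identifiers matched GENCODE M21, which gave symbols, positions and exon lengths. edgeR 4.0.16 (R 4.3.3) was fitted to the counts with TMM factors, filterByExpr, line and day as terms, and Benjamini-Hochberg adjustment at 0.05, with 2 residual degrees of freedom. Both days of a line share its hairpin cells, so the line served as the block: deviations of its day 0 and day 7 libraries from the day means correlated at 0.434 for shControl, 0.418 for shNFIB and 0.255 for shMLL1. The p-values measure the spread left after these terms over 6 libraries, with no replicate culture behind them. Single libraries were compared as log2 ratios of CPM with exact Clopper-Pearson 95% intervals (scipy 1.17.1), and differences between such ratios were not tested, since 1 library a condition leaves no residual degrees of freedom. Intervals and limits cover counting error only. A count of 0 was set to 3 counts, a convention whose ratio is not a counting limit. A count of 1 to 3 against more gave a ratio with its interval, and a pair with both counts at or below 3 gave no ratio. DESeq2 1.42.0, other scalings, filters and folds were alternatives. The fit code was run on simulated counts with less spread than these data and no line-specific day change, which checks the code only. The genes, the pathway and marker lists and the motifs were chosen with earlier results of these data known. The text names the 9 genes, list members that passed a test or the 2-fold rule and then those with the most counts, the hairpin targets, and the genes with the highest r to each gene. Slc34a1 to Slc34a3, Fgf23 and Ibsp are named for their absence.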

Additional observations from a re-analysis of the deposited data

Results flagged for a closer look

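The following differences stand out because the libraries of 2 lines moved in opposite directions between the days, or because a knockdown stood on opposite sides of shControl at day 0 and day 7. With 1 library a condition none of these differences was tested, and their intervals cover counting error only.

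Phex was higher at day 7 in shNFIB and lower in shControl, and its day change in shNFIB exceeded that in shControl by 2.76 on the log2 scale (1.98 to 3.54). Smpd3 was higher at day 7 in shMLL1 and lower in shControl, a difference of 2.33 (1.71 to 2.96) that rests on the 37 counts of shMLL1 at day 0. Phospho1 was lower at day 7 in shMLL1 and higher in shControl, a difference of -2.15 (-2.77 to -1.52), and the same contrast put shMLL1 above shControl at day 0 and below it at day 7, again -2.15.

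Slc20a1 and Slc20a2 in shMLL1 also stood above shControl at day 0 and below it at day 7, differences of -0.86 (-1.04 to -0.68) and -0.61 (-0.77 to -0.44). Mgp in shNFIB stood slightly above shControl at day 0 and slightly below it at day 7, a difference of -0.37 (-0.42 to -0.31). No group held enough libraries for a check of single outlying samples.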

How the results depend on the processing

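With 2 residual degrees of freedom, counts of calls moved with the filter, the tool and the libraries fitted, while none of the 9 genes that passed changed direction. For the day effect, the fit with no replicate block gave 1850 genes lower and 1 of the 9 genes higher (Mgp, with Enpp1 at an edgeR adjusted p of 0.122 and Alpl below the expression filter). Leaving out each line in turn gave 1213 to 2599 genes higher, 1197 to 2542 lower, 1 to 4 of the 9 genes higher and 1 to 3 lower. For shNFIB, no filter, DESeq2 and the fit of 4 libraries gave 341, 299 and 291 genes higher and 347, 315 and 302 lower, with 1 of the 9 genes lower in each (Enpp1) and 1 higher with no filter (Phex). For shMLL1 the same settings gave 236, 171 and 90 genes higher and 290, 239 and 109 lower, with 1 of the 9 higher in each (Phex), 1 lower with no filter (Alpl) and 3 lower with DESeq2. The cause was not tested.

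Signs reversed in values that had not passed a test or 2-fold: the day effect of Phospho1 without the shNFIB line (range over left-out lines -0.10 to 1.20), of Phex without the shNFIB line (-0.52 to 0.81), of Smpd3 without the shMLL1 line (-0.40 to 0.68) and with no replicate block (-0.062), and Phospho1 in shMLL1 in the fit of 4 libraries (-0.12). In single pairs, a 1.5-fold limit gave 5 of the 9 genes lower in shControl between the days and 2 of the 9 in shNFIB. At day 0 it gave 1 and 2 of the 9 higher in shNFIB and shMLL1, and at day 7 it gave 4 and 2. With the whole interval past 2-fold, 1 of the 9 was lower in shControl between the days. At day 0, 0 of the 9 were lower in shNFIB and 1 in shMLL1, and at day 7, 1 was higher in shNFIB. With library size alone, Phex in shMLL1 between the days went from -0.10 to 0.11. In that setting 1 of the 9 was lower in shControl between the days and 1 was higher in shNFIB at day 7. Shares over all genes in these settings of single pairs are not given here. Low counts limit Alpl in shMLL1 and at day 0. Levels per coding length were not run, since no protein table was used.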
